A study of Mus musculus with 12 samples.

Results

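Cldn5, Cdh5, Pecam1, Tek and Flt1 are 5 genes of vascular endothelial cells, and their signal was followed across 12 arrays of mouse hippocampus, with the difference between brain regions set against the response to a transgene. The members were all probe sets whose annotated symbol is one of these names, which gave 6 probe sets of 12422 on the array without its controls, for 5 of 8251 genes. Flt1 had 2 probe sets, a brighter and a dimmer one, and the other genes had 1 each. The mice were wild type (WT) or carried VP16-CREB (VC), a form of the transcription factor CREB that is always active, whose expression doxycycline (dox) shuts off. Microdissected CA1, a subfield of the hippocampus, came from VC mice 3 weeks off dox (n = 2 arrays) and from WT mice (n = 1). Whole hippocampus came from VC mice 1 week (n = 2), 2 weeks (n = 2) and 5 weeks (n = 1) off dox, the 5 induced arrays, and from VC mice with 3 weeks off dox and then 2 weeks back on it (n = 1, reversed). VC mice kept on dox (n = 1) and WT mice (n = 2) gave the 3 never-induced arrays. WT mice were kept under the same conditions as the VC mice. The description of the reversed sample calls it wild type and its title calls it VC, so it forms a separate group here. The sources used here do not name the promoter behind the transgene, the strain or the age.

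Each hippocampal sample pooled 6 to 10 mice, so p-values measure the spread between pooled samples, which may in part be technical. As a check of the transgene labels, both tested Creb1 probe sets read higher on every array with the transgene on than on the never-induced arrays of its region, and another, too dim to test, did so in CA1 and overlapped in hippocampus. The probe set with the wider gap read 8.31 to 9.63 on the log2 scale in induced hippocampus and 7.10 after reversal, against 6.04 to 6.33 in never-induced hippocampus. In CA1 it read 8.86 and 9.56 in VC mice against 6.04, the lowest value allowed, in WT mice. The deposited arrays came in 2 scales: the 3 CA1 arrays and WT hippocampus array 1 had a trimmed mean near 500.3, and the other 8 arrays near 3002. All arrays were rescaled to a trimmed mean of 1000, and the intensities below are on that scale. Region and deposited scale therefore overlap on all arrays but one. Markers of dentate granule cells, which CA1 lacks, summed to 4407 to 5734 on CA1 arrays and 6487 to 9508 on hippocampal arrays. Of 7 CA1 pyramidal markers 1 was higher in CA1, the transcription factor Pou3f1 (0.68 log2, adjusted p = 0.0164), and the other 6 did not pass, with Ccn3 at -0.41 and Neurod6 at -0.25. The list's median was 0.13, and its sums overlapped, at 10018 to 12856 on CA1 arrays and 9532 to 13660 on hippocampal arrays.

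Endothelial cells of the brain form the blood-brain barrier. Cldn5 encodes the main claudin of their tight junctions, Cdh5 encodes VE-cadherin of their adherens junctions, and Pecam1 encodes an adhesion molecule of the cell contacts that leukocytes and platelets also carry. Tek encodes the angiopoietin receptor Tie2, and Flt1 encodes a receptor for VEGF-A, VEGF-B and placental growth factor. CREB binds the cyclic AMP response element (CRE), whose full form is TGACGTCA, and ETS factors, many of them active in endothelium, bind sites built on GGAA.

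Promoter sequences were available for 3 of the 5 genes (Cldn5, Tek and Flt1), as the 250 bases before the transcription start in the RefSeq table for GRCm38.p6. The 2 sequences shown are that of Flt1, which holds a full CRE, and that of Cldn5, which holds neither a CRE nor GGAA. They lie at chr5:147726012-147726261 on the minus strand for Flt1 and at chr16:18776597-18776846 on the plus strand for Cldn5, each written 5′ to 3′ along the gene, with matches in capitals.
Flt1: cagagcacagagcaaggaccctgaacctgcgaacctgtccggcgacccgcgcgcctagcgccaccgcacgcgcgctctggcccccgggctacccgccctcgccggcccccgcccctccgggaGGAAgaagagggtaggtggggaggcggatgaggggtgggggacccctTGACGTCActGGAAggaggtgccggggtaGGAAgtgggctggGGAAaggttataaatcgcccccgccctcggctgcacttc
Cldn5: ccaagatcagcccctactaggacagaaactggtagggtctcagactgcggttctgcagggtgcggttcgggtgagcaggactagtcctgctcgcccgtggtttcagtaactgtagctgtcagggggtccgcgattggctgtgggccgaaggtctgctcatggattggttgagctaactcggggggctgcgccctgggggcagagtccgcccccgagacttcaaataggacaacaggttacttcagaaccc
The Flt1 promoter held 1 TGACGTCA, 81 to 74 bases before the start, and 4 GGAA matches, the nearest to the CRE 71 bases before the start. The short CRE, TGACG or CGTCA, is part of the full one and occurred there only within it. The Tek promoter held GGAA only on the other strand, at 89 and 59 bases before the start. Searched on both strands over 32851 promoters of the same length, TGACGTCA was present in 1.55%, the short CRE in 17.8% and GGAA in 93.4%. These matches describe the letters of these windows, not bound sites.

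The region effect, the mean of the CA1 WT and CA1 VC levels minus the mean of the never-induced and induced hippocampal levels, asked where these genes read higher whatever the transgene did. In CA1, 4 of the 5 member probe sets tested were higher and none was lower at an adjusted p of 0.05 in limma, namely those of Cldn5 and Cdh5 and both of Flt1. Over all 7069 tested probe sets 35.9% were called, 11.4% higher and 24.5% lower. Of the 4, Cdh5 and the dimmer Flt1 probe set passed the filter on dim probe sets only through CA1, so the count of 4 is a description. Pecam1 was not called, and Tek lay under the filter on dim probe sets. No member passed for the transgene in either region. In bulk tissue, fewer cells of a type and less RNA per cell cannot be told apart.

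Cldn5 was the brightest member and exceeded the array median on all 12 arrays. It read 3248 and 2140 in CA1 of VC mice and 3316 in CA1 of WT mice. In hippocampus it read 1153 and 873.8 in WT mice and 1033 in VC mice on dox, then 1166 and 2041 after 1 week off dox, 1114 and 881.1 after 2, 1269 after 5 and 1020 with reversal. All 3 CA1 arrays lay above all 9 hippocampal arrays, the closest pair being the dimmer VC CA1 array and the second 1-week array, which stood apart from the other 8 of its region. Its log2 level averaged 11.47 ± 0.36 in CA1 (SD, n = 3) and 10.15 ± 0.36 in hippocampus (SD, n = 9). The region effect was 2.63-fold (log2 difference 1.40 ± 0.25 SE, 95% interval 0.85 to 1.94, adjusted p = 0.00245). Without the second 1-week array it was 1.49 (adjusted p = 0.000814).

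Cdh5 was dimmer and followed the same order of regions. It read 332.0 and 391.8 in CA1 of VC mice and 543.7 in CA1 of WT mice. In hippocampus it read 188.9 and 177.3 in WT mice, 163.9 on dox, 113.3 and 274.0 after 1 week off dox, 207.1 and 141.1 after 2, 212.2 after 5 and 155.4 with reversal. The regions did not overlap, although the second 1-week array was again the highest of hippocampus. The level averaged 8.69 ± 0.36 log2 in CA1 (SD, n = 3) and 7.46 ± 0.37 in hippocampus (SD, n = 9), with a region effect of 2.48-fold (1.31 ± 0.25 SE, 95% interval 0.76 to 1.86, adjusted p = 0.00346). Cdh5 exceeded the array median only on the 3 CA1 arrays, so it passed the filter only through the region where it was higher. Tested with no filter over all 12422 probe sets, its adjusted p was 0.0122 and that of Cldn5 was 0.00904.

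Pecam1 did not share this pattern. It read 484.3 and 237.1 in CA1 of VC mice and 466.7 in CA1 of WT mice, against a hippocampal range of 315.3 to 652.6 with a median of 492.9. The second VC CA1 array lay below every hippocampal array and the other 2 CA1 arrays lay among them, so the regions overlapped. Its level averaged 8.56 ± 0.58 log2 in CA1 (SD, n = 3) and 8.83 ± 0.40 in hippocampus (SD, n = 9). The region effect was -0.23 ± 0.27 SE (95% interval -0.83 to 0.37, adjusted p = 0.529), and its sign turned with quantile normalization (0.026), with arrays scaled to one median (0.056) and without the second VC CA1 array (0.029).

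The 2 Flt1 probe sets differed in level and in spread. The brighter one read 906.0 and 685.4 in CA1 of VC mice and 866.4 in CA1 of WT mice, against 454.6 to 683.6 in hippocampus with a median of 588.0. The CA1 arrays lay above the hippocampal ones by a margin of 685.4 against 683.6 at the closest pair. Its region effect was 1.44-fold (0.52 ± 0.17 SE, 95% interval 0.14 to 0.90, adjusted p = 0.0360). The call was lost with no filter (adjusted p = 0.0568) and without the first VC CA1 array (0.108), the second WT hippocampal array (0.0715), the dox array (0.0743), the second 1-week array (0.0504) or the first 2-week array (0.0504).

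The dimmer Flt1 probe set read 523.6 and 483.1 in CA1 of VC mice and 479.5 in CA1 of WT mice. In hippocampus it read 130.9 and 111.7 in WT mice, 87.2 on dox, 387.0 and 128.3 after 1 week off dox, 106.8 and 116.6 after 2, 322.5 after 5 and 120.3 with reversal. The CA1 arrays lay close together, whereas 2 of the 9 hippocampal arrays read 322.5 and 387.0 and the other 7 lay between 87.2 and 130.9, with the 1-week pair on opposite sides. Its level averaged 8.95 ± 0.070 log2 in CA1 (SD, n = 3) and 7.19 ± 0.74 in hippocampus (SD, n = 9). The region effect was 3.50-fold (1.81 ± 0.41 SE, 95% interval 0.89 to 2.72, adjusted p = 0.00804, and 0.0286 with no filter). Like Cdh5 it exceeded the array median only in CA1. The sources used here do not say which part of the Flt1 transcript each probe set reads, and membrane and soluble forms of the receptor were not separated.

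Tek exceeded the array median on 1 of 12 arrays and was not tested. It read 145.7 and 306.0 in CA1 of VC mice and 330.4 in CA1 of WT mice, against 150.0 to 294.7 in hippocampus with a median of 224.1. The VC CA1 arrays were the dimmest and the second brightest of all, so the regions overlapped. With no filter its region effect was 0.29 ± 0.28 SE (adjusted p = 0.504).

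**Figure D1:**
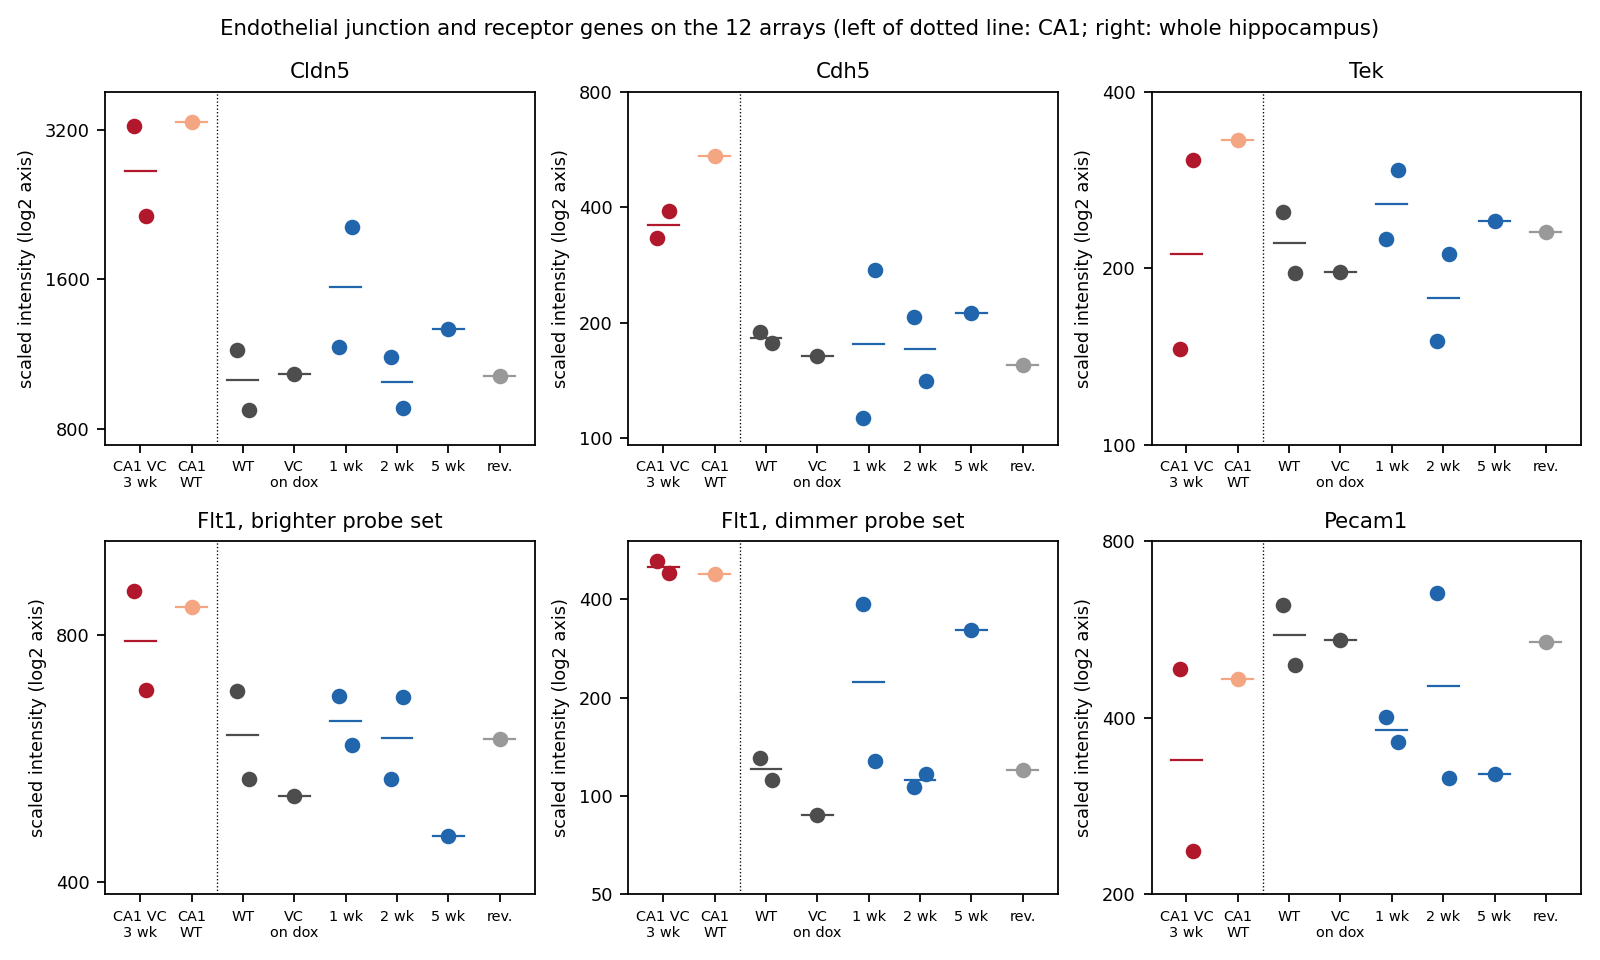
Scaled intensity (log2 axis) of the 6 probe sets on the 12 arrays, by group, with points for arrays and lines for group means. CA1 lies above hippocampus for Cldn5, Cdh5 and both Flt1 probe sets, whereas Tek and Pecam1 overlap between the regions.

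For Cldn5 and the brighter Flt1 probe set, which exceeded the array median on all 12 arrays, all 3 CA1 arrays lay above all 9 hippocampal arrays, an order found for 7.61% of all tested probe sets and, with CA1 below, for 16.8%. Cdh5 and the dimmer Flt1 probe set had the same order, but they entered the tested set only through CA1. Of the hippocampal arrays, WT array 1 alone has the lower deposited scale, so within that scale the 3 CA1 arrays can be set only against it. There CA1 was 2.47-fold higher for Cldn5 (1.30 log2), 2.19-fold for Cdh5 (1.13), 1.19-fold for the brighter Flt1 probe set (0.25) and 3.78-fold for the dimmer Flt1 probe set (1.92), and the differences were -0.025 for Tek and -0.72 for Pecam1. These values have no replicate on the hippocampal side and no test. Fitted with a block for deposited scale, the region effect was 1.16 ± 0.44 SE for Cldn5 (adjusted p = 0.152), 1.19 ± 0.46 for Cdh5 (0.155), 0.20 ± 0.29 for the brighter Flt1 probe set (0.706) and 1.47 ± 0.75 for the dimmer Flt1 probe set (0.266). None of the members passed there, and 288 of all probe sets did, against 2539 without the block. The region effects of Cldn5, Cdh5 and both Flt1 probe sets were above 0 under each setting run.

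The centre of the whole table moved with the scaling. The median region effect over all tested probe sets was -0.13, and it was -0.028 with quantile normalization and 0.15 with arrays scaled to one median. Among calls 31.8% were higher in CA1 (807 of 2539), against 42.9% and 67.2% in those settings. In those settings the effect of Cldn5 was 1.39 and 1.68, above the median of all probe sets in both. That of Cdh5, which passed the filter on dim probe sets only through CA1, was 1.55 and 1.60.

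The induction effect asked whether the genes followed VP16-CREB. In hippocampus none of the 5 tested member probe sets passed in limma, none had an unadjusted p under 0.05, and of all probe sets 0.0283% passed and 3.15% had such a p. Cldn5 averaged 10.28 ± 0.45 log2 in induced hippocampus (SD, n = 5) and 9.99 ± 0.20 in never-induced hippocampus (SD, n = 3), a difference of 0.29 ± 0.25 SE with a 95% interval of -0.26 to 0.85. Cdh5 averaged 7.50 ± 0.51 in induced and 7.46 ± 0.10 in never-induced hippocampus (0.035 ± 0.25 SE, interval -0.53 to 0.60). The induced arrays spread on both sides of the never-induced ones for Cdh5. Pecam1 averaged 8.63 ± 0.43 in induced and 9.10 ± 0.17 in never-induced hippocampus (-0.48 ± 0.28 SE, interval -1.09 to 0.14), and 4 of 5 induced arrays lay below all 3 never-induced ones. Flt1 gave 0.020 ± 0.18 SE with the brighter probe set and 0.75 ± 0.42 with the dimmer one, whose interval ran from -0.19 to 1.68. The adjusted p was 0.999 for each of these members. Tek, with no filter, gave 0.042 ± 0.28.

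In CA1, where 2 VC arrays were set against 1 WT array, no member probe set passed either, none had an unadjusted p under 0.05, and of all probe sets 0.467% passed and 10.0% had such a p. The differences were -0.33 ± 0.42 SE for Cldn5 (adjusted p = 0.845), -0.59 ± 0.43 for Cdh5 (0.701), -0.46 ± 0.47 for Pecam1 (0.788), -0.14 ± 0.29 for the brighter Flt1 probe set (0.928) and 0.069 ± 0.71 for the dimmer Flt1 probe set (0.992). For Cdh5 both VC arrays read below the WT array, and for Cldn5 the brighter VC array came within 3248 against 3316. Tested directly, the induction effect in CA1 minus that in hippocampus passed for no member, with 0.0566% of all probe sets called and 5.81% at an unadjusted p under 0.05. It was -0.63 ± 0.50 SE for Cdh5, -0.63 ± 0.49 for Cldn5 and 0.016 ± 0.54 for Pecam1 (adjusted p 0.989 or above for each member, none with an unadjusted p under 0.05). Averaged over both regions the induction effect again passed for no member, against 0.311% of all probe sets, and ran from -0.47 (Pecam1) to 0.41 (the dimmer Flt1 probe set), with none at an unadjusted p under 0.05 against 11.3% of all.

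**Figure D2:**
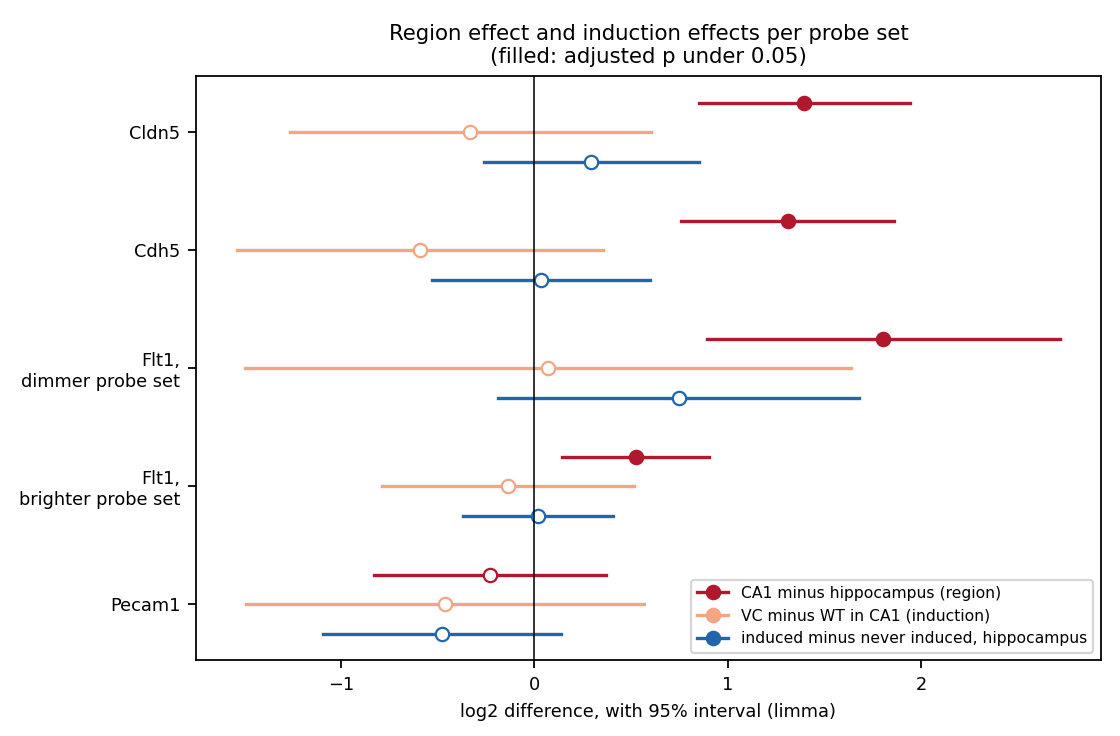
Log2 differences with 95% intervals for the 5 tested probe sets: CA1 minus hippocampus, VC minus WT in CA1, and induced minus never-induced hippocampus (filled, adjusted p under 0.05). The 4 filled points are region effects, 0.52 to 1.81, and every induction interval crosses 0.

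Set against each other, the region effect exceeded the induction effect averaged over both regions for 2 of 5 member probe sets in limma, Cldn5 (1.42 ± 0.38 SE, adjusted p = 0.0329) and Cdh5 (1.59 ± 0.38 SE, adjusted p = 0.0238), where 14.6% of all probe sets passed and 4.14% did so with a positive sign. In this design the contrast equals the CA1 WT level minus the induced hippocampal level, so it rests on 1 CA1 array. Cdh5 passed the filter on dim probe sets only through CA1, so the count of 2 is a description. With trend and robust settings the Cdh5 call was lost. The Cldn5 call was lost without the dox array (adjusted p = 0.0510) or the first 1-week array (0.0534) and with no filter (0.0668). Flt1 gave 0.58 ± 0.26 SE (adjusted p = 0.151) and 1.40 ± 0.63 (0.151), and Pecam1 0.24 ± 0.42 (0.724).

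The region effect was also read within each state of the transgene. With the transgene on, VC CA1 exceeded induced hippocampus for Cldn5 (1.08 ± 0.29 SE, adjusted p = 0.0274) and Cdh5 (1.00 ± 0.29, adjusted p = 0.0383), where 19.5% of all probe sets passed. Without it, WT CA1 exceeded never-induced hippocampus for Cldn5 (1.71 ± 0.40 SE, adjusted p = 0.0230) and Cdh5 (1.62 ± 0.40, adjusted p = 0.0290), where 11.7% passed. The CA1 side of this comparison is 1 array, and Cdh5 was tested in both only because CA1 carried it over the filter. The dimmer Flt1 probe set fell short of the threshold in both, at 1.47 (adjusted p = 0.0559) and 2.14 (adjusted p = 0.0606), as did the brighter Flt1 probe set at 0.45 and 0.60. The dimmer Flt1 probe set passed without the first 1-week array in both (0.0229 and 0.0326) and, with the transgene on, without the 5-week array (0.0328). With no filter both calls with the transgene on were lost (adjusted p = 0.0648 for Cldn5 and 0.0850 for Cdh5), and in WT mice that of Cdh5 was lost (0.0587) while Cldn5 stood at 0.0482. With trend and robust settings the Cdh5 calls were lost with the transgene on (0.0876) and in WT mice (0.0645). With the transgene on, the Cldn5 call was lost without the first VC CA1 array (0.78, adjusted p = 0.218) or the first 1-week array (0.0507). The Cdh5 call was lost without either VC CA1 array (0.114 and 0.129), any never-induced array (0.0529 to 0.0570) or the second 2-week array (0.0707). In WT mice, the Cdh5 call was lost without any never-induced array (0.0548 to 0.0692), and the Cldn5 call without the dox array (0.0536) or the second WT hippocampal array (0.0598). The difference between these 2 region effects is the difference of the induction effects given above, for which no member passed.

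Ordered by group mean, CA1 WT came first and CA1 VC second for Cldn5 (11.70 and 11.36 log2), Cdh5 (9.09 and 8.49) and the brighter Flt1 probe set (9.76 and 9.62), and the 2 changed places for the dimmer Flt1 probe set (8.91 and 8.97). Below them, the hippocampal groups other than 1 week held Cldn5 between 9.77 and 10.31 on single arrays, with no gap between groups. Of the 1-week pair, the dimmer array lay within this range and the brighter one above it, short of the dimmer VC CA1 array at 11.06. For Pecam1 the order began with hippocampus of WT mice (9.11), of VC mice on dox (9.08) and after reversal (9.07), and ended with VC CA1 (8.40) and 5 weeks (8.32), but the VC CA1 arrays alone spanned 7.89 to 8.92.

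Over time off dox, no member passed against the never-induced arrays in limma. Of all probe sets 0.0283% passed at 1 week, 0.156% at 2 weeks, 0.990% at 5 weeks and 0% with reversal, and 5.01%, 4.46%, 7.30% and 3.38% had an unadjusted p under 0.05. The dimmer Flt1 probe set had an unadjusted p under 0.05 at 1 week and at 5 weeks, and no other member had one at any of these times or with reversal. It differed by 1.04 ± 0.40 SE at 1 week (adjusted p = 0.969), 0.042 ± 0.40 at 2 weeks (adjusted p = 1), 1.57 ± 0.51 at 5 weeks (adjusted p = 0.405) and 0.15 ± 0.51 after reversal (adjusted p = 1). The 5-week difference rests on 1 array. It crossed the threshold when either 1-week array was left out, with the difference unchanged at 1.57 and the SE at 0.25 instead of 0.51. The other Flt1 probe set gave -0.33 ± 0.26 at 5 weeks. Cldn5 differed by 0.61 ± 0.28 SE at 1 week (adjusted p = 0.969) and by 0.20 without the second 1-week array, by -0.032 at 2 weeks, 0.32 at 5 weeks and 0.0090 after reversal. Pecam1 differed by -0.53, -0.28 and -0.78 at 1, 2 and 5 weeks and by -0.030 after reversal. Among microglia markers, 9 of 15 were higher at 5 weeks (median 1.68), and their part in the 5-week values of these genes was not tested.

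So that the region difference did not enter, pairs of genes were compared within the 9 hippocampal arrays, each gene by its brightest tested probe set. No pair of the 6 passed. The closest was Cldn5 with Cdh5 (Pearson r = 0.658, exact two-sided permutation p = 0.0603, adjusted p = 0.362; Spearman rho = 0.533, exact permutation p = 0.148, adjusted p = 0.689). Without the 2 arrays farthest from the Cldn5 median, r was 0.397. Pecam1 gave r = -0.25 with Cldn5, 0.034 with Cdh5 and 0.021 with Flt1 (exact permutation adjusted p = 0.957 for each). The probe sets most like the mean of the tested members (each gene by its brightest probe set) over all 12 arrays, which also share region and deposited scale, were those of Ybx1 (r = 0.971), Chd4 (0.961), Trpc4ap (0.952), Ptpn1 (0.950) and Fbxw2 (0.949), of 6400 candidates. Over the 9 hippocampal arrays they were those of Rps3a1 (0.931), Mrpl23 (0.895), Psmd1 (0.891), Fbxw2 (0.890) and Ubxn6 (0.879).

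The other genes of these pathways were read from lists, each gene by its brightest tested probe set. List genes went through the same filter on dim probe sets, so some could enter only through CA1, and counts and medians are descriptions. Of 28 named receptors and ligands, 24 were on the array and 12 were tested. Tie1 read at most 376.4 in hippocampus, where the lowest array median was 377.1, so it passed only through CA1. Beside their counts, 11.4% of all tested probe sets were higher in CA1 and 24.5% lower. With the deposited scale as a block, 63 of all 7069 were higher and 225 lower. Of 12 tested endothelial receptors and ligands, 4 were higher in CA1 and none was lower, with a median region effect of 0.39 against -0.13 over all tested probe sets. They were Nrp1, a VEGF co-receptor (1.07, adjusted p = 0.00914), Fzd4, a receptor for norrin and Wnt proteins in barrier endothelium (0.65, adjusted p = 0.00456), Ramp2, a partner of the adrenomedullin receptor (0.46, adjusted p = 0.0407), and Vegfb, a ligand of Flt1 (0.44, adjusted p = 0.0243). Notch1 had a larger difference that did not pass (1.31, adjusted p = 0.0596). Kdr, the other main VEGF receptor of endothelium, differed by -0.16, Epas1, a hypoxia-inducible factor, by -0.15 and Acvrl1, a receptor of the TGF-beta family, by -0.082, none of which passed. The summed intensity of the list was 19770 to 22483 on CA1 arrays and 14640 to 16537 on hippocampal arrays, with no overlap. Nrp1 alone read 3221 to 4888 in CA1 and 1342 to 3145 in hippocampus. Which cells carried the genes of this list and of the lists below was not tested. The list median was 0.44 with quantile normalization and 0.68 with arrays scaled to one median, and with the deposited scale as a block it was 0.23 with no gene called.

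The junction partners had a smaller median shift than the receptors and ligands, and these lists were not compared by a test. Of 13 tested, 1 was higher, Cdh13 or T-cadherin (0.88, adjusted p = 0.0265), and 1 was lower, Ctnna1 or alpha-catenin, which links cadherins to actin (-0.47, adjusted p = 0.0367), with a median of -0.031. Tjp1, the tight junction scaffold ZO-1, differed by 0.26 and F11r, the adhesion molecule JAM-A, by 0.25. The cadherin-binding catenins Ctnnb1 and Jup differed by -0.29 and -0.27. None of these 4 passed. The median over all tested probe sets was -0.13. The list median turned positive with quantile normalization (0.12, against -0.028 over all tested probe sets) and with arrays scaled to one median (0.25, against 0.15). With the deposited scale as a block neither called gene passed. Many of these partners are also made by neurons and glia.

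Of 24 other endothelial markers, 4 were higher and 3 lower in CA1, with a median of 0.0023. Klf4, a flow-responsive transcription factor (2.01, adjusted p = 0.00336), Vwf, the von Willebrand factor (1.17, adjusted p = 0.0103), Slc2a1, the glucose transporter of the barrier (0.59, adjusted p = 0.0438), and Slc7a5, an amino acid transporter (0.56, adjusted p = 0.00717), were higher. Edn1, the vasoconstrictor endothelin-1 (-1.31, adjusted p = 0.0223), Gata2, a transcription factor (-0.84, adjusted p = 0.00194), and Tfrc, the transferrin receptor (-0.80, adjusted p = 0.0258), were lower. Calls among these 24 markers went both ways, beside 11.4% higher and 24.5% lower over all tested probe sets. With the deposited scale as a block none of the 7 passed, where 63 of all 7069 probe sets were higher and 225 lower.

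Pericytes, smooth muscle cells and fibroblasts accompany the vessels, and 15 of their markers were tested. Higher in CA1 were 3, the basement membrane collagen Col4a1 (0.78, adjusted p = 0.0301), the mural cell receptor Notch3 (0.66, adjusted p = 0.00515) and the smooth muscle protein Tagln (0.65, adjusted p = 0.0128). Lower were 5, the matrix genes Lum (-1.15, adjusted p = 0.00127), Lamc1 (-1.10, adjusted p = 0.00188), Col1a1 (-1.02, adjusted p = 0.00116), Dcn (-0.75, adjusted p = 0.00993) and Col1a2 (-0.60, adjusted p = 0.0135). The lower genes are fibroblast and matrix genes and the list median was -0.065 (0.085 with quantile normalization and 0.22 with arrays scaled to one median). With the deposited scale as a block, Col1a1 and Lum remained called as lower. Lamc1 was the only gene of these 4 lists that passed an induction effect, in CA1 (2.16) and over both regions (1.12). It read 154.1 to 865.7 on CA1 arrays, the lowest being the WT array, against 611.3 to 938.6 on hippocampal arrays. Its lower level in CA1 and both induction effects therefore depend on that 1 array. The median induction effect in hippocampus was 0.0060 for receptors and ligands, -0.0047 for junction partners, 0.087 for other endothelial markers and 0.039 for pericyte, smooth muscle and fibroblast markers.

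**Figure D3:**
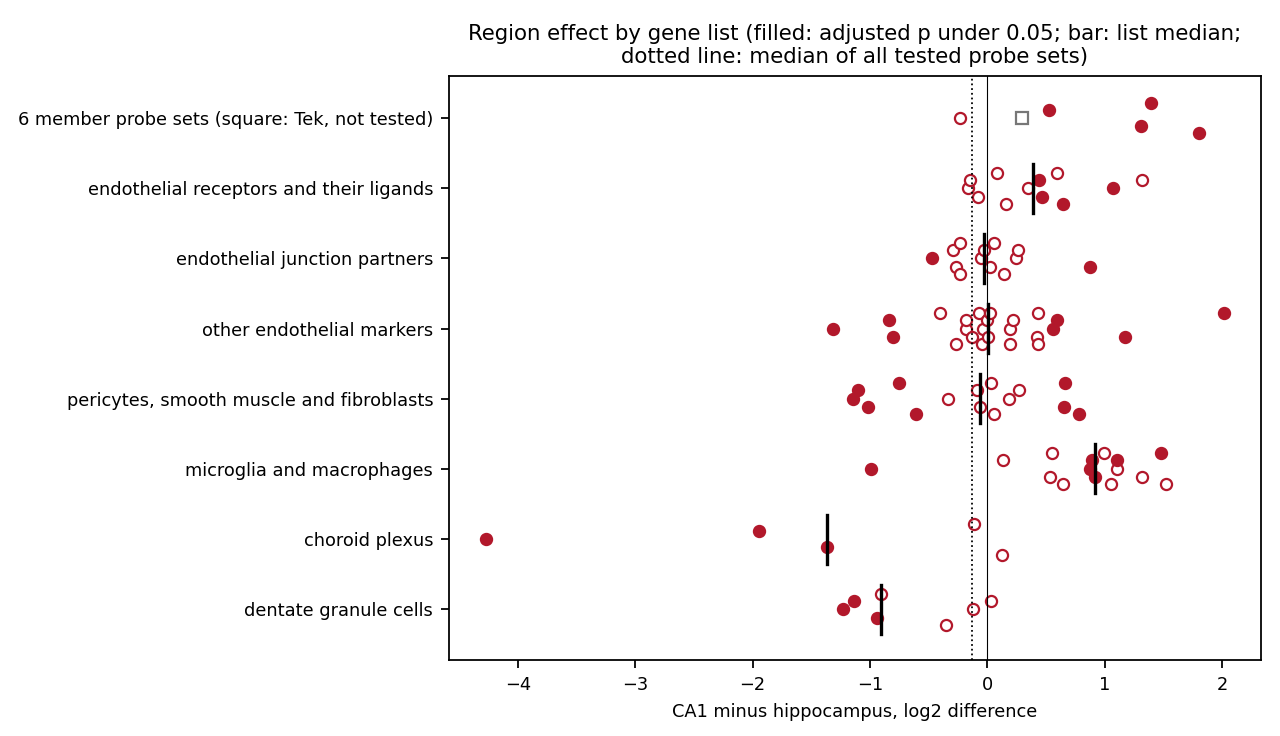
Region effect (CA1 minus hippocampus, log2) per gene for the members and 7 lists, filled where the adjusted p is under 0.05, with a bar at each list median and a dotted line at the median of all tested probe sets (-0.13). The receptor list centres at 0.39 and the junction list at -0.031, choroid plexus lies lowest (-1.37) and microglia highest (0.92).

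Some markers of other cell types also differed by region. Over all tested probe sets 11.4% were higher and 24.5% lower in CA1, and the counts of several lists here lie near that share. Of 15 microglia and macrophage markers 5 were higher and 1 lower (median 0.92), with summed intensities of 29199 to 82790 on CA1 arrays and 19225 to 67974 on hippocampal arrays. With the transgene on 6 were higher and none lower (median 1.38), beside 4.95% higher and 14.5% lower over all tested probe sets. In WT mice, with 1 CA1 array, the median was 0.36 against -0.13 over all tested probe sets. The sums were 82790 and 79972 in VC CA1 and 29199 in WT CA1. With the deposited scale as a block none was higher and 1 lower, beside 63 higher and 225 lower of all 7069 probe sets. Of 5 choroid plexus markers 3 were lower, among them Ttr, the thyroid hormone carrier transthyretin (-4.27, adjusted p = 0.00513), and the sums were 4801 to 6384 on CA1 arrays and 4897 to 16131 on hippocampal arrays. Of 7 dentate granule markers 3 were lower (median -0.90). Of 15 astrocyte markers 2 were higher and 4 lower, of 8 oligodendrocyte markers 1 was higher and 1 lower, and of 4 CA3 and CA2 pyramidal markers 1 was lower. With the deposited scale as a block, 1 dentate granule marker was called as lower. No choroid plexus, astrocyte, oligodendrocyte, CA1 pyramidal or CA3 and CA2 pyramidal marker was called there. Of 3 blood and platelet markers none passed, with sums of 8703 to 10333 on CA1 arrays and 5694 to 15346 on hippocampal arrays. Among the microglial markers Cst7 stood at the lowest value allowed on 1 CA1 array and 2 hippocampal arrays. Of 14 named markers each, 3 for blood and platelets and 5 for choroid plexus were tested, so nothing is shown for the rest. The part of these cell types in the region effects of Cldn5, Cdh5 and Flt1 was not tested.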

How the data were processed

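The 12 samples were hybridised to Affymetrix MG-U74Av2 arrays, 1 each. Per the labels' protocols, TRIzol-extracted RNA was enriched for polyA RNA and biotin-labelled. The deposited values are linear intensities, with GCOS named by the submitters' processing notes as the software. The sources used here do not give its version, the algorithm or the scaling.

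Intensities of each array were divided to bring the 2% trimmed mean to 1000, floored at the 20th percentile (65.7, 6.04 log2) and log2 transformed. Of 12488 probe sets, 66 were controls. Those above the median of their own array on at least 2 arrays were tested (7069). Symbols came from the platform annotation. limma 3.58.1 in R 4.3.3 (lmFit, eBayes) fitted 5 levels (never induced, induced, reversed, CA1 WT, CA1 VC), or 7 with the times apart, in 12 comparisons. Tests were two-sided, with Benjamini-Hochberg adjustment over all tested probe sets and a threshold of 0.05. Groups of 1 array were assumed to vary like the replicated ones. The script was tested on simulated data.

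Named list genes are those past the threshold in the region or induction effects, and the 3 largest and 3 smallest region effects of each vascular list. For the other cell types, Pou3f1, Ccn3, Neurod6 and Ttr were named as examples after their values were seen. The members and lists were chosen with earlier results of these data known. Alternatives changed the scaling, floor, filter, deposited-scale block, arrays and model. The number of arrays limits the precision.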

Additional observations from a re-analysis of the deposited data

Results flagged for a closer look

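Of 12 groups of arrays checked over the member probe sets, 1 held an array that stood apart, and chance alone gives about 1 in 20. Among the 9 hippocampal arrays, Cldn5 read 2041 on the second array at 1 week off dox, against 873.8 to 1269 on the other 8. The gap to the nearest array was 0.56 of the whole range on the log2 scale. Cdh5 was also highest of hippocampus on that array, at 274.0, while Pecam1 read 363.0 there and Flt1 588.0 and 128.3. The region effect of Cldn5 was 1.49 without this array and 1.40 with it, and its induction effect in hippocampus was 0.12 without it and 0.29 with it.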

How the results depend on the processing

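The region effects of Cldn5 and Cdh5 kept their direction under each alternative run, from 1.16 to 1.68 and from 0.92 to 1.60 log2, and passed under each but the deposited scale as a block, where tested. The CA1 WT array could not be left out of comparisons that need it, being the only one of its level. Of the members, 4 passed for region (3 to 4 leaving out single arrays), 2 with a filter on 6 arrays, which leaves Cdh5 and the dimmer Flt1 probe set untested, and 0 with the scale block. For region minus induction 2 passed, 1 with no filter, with a filter on 6 arrays, with only WT as never induced and with trend and robust settings, 0 with the scale block, and 1 to 2 leaving out single arrays. For region in WT mice 2 passed, 1 with no filter, the filter on 6 arrays or trend and robust settings, 0 with the scale block or only WT as never induced, and 0 to 3 leaving out single arrays. For region with the transgene on 2 passed, 4 with arrays scaled to one median, 1 with the filter on 6 arrays, only WT as never induced, only 2 and 5 weeks as induced, or trend and robust settings, 0 with no filter or the scale block, and 0 to 3 leaving out single arrays. At 5 weeks 0 passed, and 0 to 1 leaving out single arrays. Some settings gave more calls, all on Flt1. With the transgene on, its dimmer probe set also passed in limma with quantile normalization (adjusted p = 0.0353). It did so too with the floor at the 40th percentile (0.0172) and with log2 of the value plus 50 (0.0458). In WT mice it passed with one median or that floor, and the brighter one passed for region minus induction with one median. Except where the filter sets which probe sets are tested, the cause of these changes was not tested.

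Replicate numbers did not pair the arrays (correlations of same-numbered deviations -0.23 to 0.20 over 6 pairs of groups). With the replicate number as a block on the numbered arrays, 0 members passed for region with the transgene on, against 1 on the same arrays with no block, a setting chosen after seeing the data. That 1 was the dimmer Flt1 probe set (adjusted p = 0.0482 in limma), which entered the tested set only through CA1. Cldn5 (0.0605) and Cdh5 (0.0625) did not pass on these arrays even with no block. Over all probe sets 887 passed with the block and 1018 without it. No other call on a member changed under it.

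Signs turned only for members that had not passed. Pecam1 turned for region (0.026 with quantile normalization, 0.056 with one median, -0.49 to 0.029 leaving out single arrays), for region in WT mice (0.022 and 0.062) and with the transgene on (0.029 and 0.049, and -0.74 to 0.29 leaving out single arrays), for region minus induction (-0.029 with the scale block), for induction in CA1 (-0.98 to 0.053 leaving out single arrays) and for the difference of induction effects (-0.013 with one median, -0.074 with the scale block, -0.017 with only 2 and 5 weeks, -0.50 to 0.53 leaving out single arrays). Cdh5 turned for induction in hippocampus (-0.015 with quantile normalization, -0.018 with only WT as never induced, -0.076 with the replicate block and on the numbered arrays alone, -0.12 to 0.20 leaving out single arrays). The brighter Flt1 probe set turned for induction in hippocampus (-0.062 with only WT as never induced, -0.061 with only 2 and 5 weeks, -0.062 to 0.15 leaving out single arrays), for induction in CA1 (-0.34 to 0.064 leaving out single arrays) and for the difference (-0.36 to 0.044 leaving out single arrays).

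Counts over all probe sets moved by more than 1.5 times in several settings. For region they ran from 288 (scale block) to 3029 against 2539, for induction in hippocampus from 0 to 21 against 2, for induction in CA1 from 0 to 292 against 33, for the difference from 0 to 228 against 4, for induction over both regions from 0 to 263 against 22, for region minus induction from 50 to 1518 against 1032, for region in WT mice from 238 to 1350 against 827, and with the transgene on from 21 to 1679 against 1376. At 1, 2 and 5 weeks they ran from 0 to 5 against 2, 2 to 22 against 11 and 40 to 94 against 70, and after reversal from 0 to 41 against 0. Cdh5, Tek and the dimmer Flt1 probe set lay below most array medians.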
